A study of Mus musculus with 4 samples.

Results

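Cell adhesion genes of the early mouse foregut are described here: the classical cadherins Cdh1, Cdh2, Cdh3, Cdh4, Cdh6 and Cdh11, and the epithelial adhesion gene Epcam. Every probe set (the group of array probes that reports 1 transcript) to which the platform annotation gives 1 of these 7 symbols alone was taken, which gave 14 of the 45101 probe sets of the array, for 7 of 18193 genes with a symbol of their own. The study measured RNA from ARC/s mouse embryos at embryonic day 8.5, staged at 4 to 5 somites (3 to 5 in another label), on 4 Affymetrix mouse arrays. Foregut endoderm, dissected from the anterior intestinal portal, was set against heart mesoderm combined with mesoderm and ectoderm of the head folds. There were 2 arrays of each tissue, with 15 to 20 tissue pieces pooled for each array. In experiment 1 both tissues were separated by hand, and in experiment 2 trypsin and pancreatin were used before dissection, so an effect of the enzymes and one of the experiment cannot be told apart. No transgene, mutation or drug is named in any group. The endoderm sample of experiment 2 is called ectoderm in 1 of its labels and foregut endoderm in the others.

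Classical cadherins are calcium-dependent adhesion proteins that bind cadherins of the neighbouring cell outside the membrane and catenins inside it, and the catenins tie them to actin. E-cadherin (Cdh1) holds epithelia together, N-cadherin (Cdh2) is the cadherin of neural plate, heart muscle and much mesoderm, and the exchange of the former for the latter accompanies the exit of mesoderm from the epiblast and the closing of the neural tube. Epcam is a membrane glycoprotein of simple epithelia, present in gut endoderm from early stages. Snai and Zeb repressors bind E-boxes with the letters CACCTG or CAGGTG in promoters of epithelial genes, and grainyhead-like factors such as Grhl2 activate such genes through sites built around ACCGGT.

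Promoter sequence was at hand for 2 of the 7 genes, Epcam and Cdh6. These happen to stand on opposite sides of the tissue comparison below, so both are shown as the 250 bases before the RefSeq start of transcription (GRCm38.p6), with letters matching either motif in capitals. The Epcam window lies on the plus strand at chr17:87635729-87635978, and that of Cdh6 on the minus strand at chr15:13173676-13173925.
Epcam: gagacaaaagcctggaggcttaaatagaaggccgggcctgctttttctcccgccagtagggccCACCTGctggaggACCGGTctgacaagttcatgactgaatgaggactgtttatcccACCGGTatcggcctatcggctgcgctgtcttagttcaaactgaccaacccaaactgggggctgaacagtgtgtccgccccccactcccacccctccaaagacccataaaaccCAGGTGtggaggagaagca
Cdh6: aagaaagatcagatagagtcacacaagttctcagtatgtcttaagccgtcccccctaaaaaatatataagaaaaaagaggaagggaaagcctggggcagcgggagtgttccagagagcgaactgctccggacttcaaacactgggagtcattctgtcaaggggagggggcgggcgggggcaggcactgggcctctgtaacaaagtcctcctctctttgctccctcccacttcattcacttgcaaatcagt
The Epcam window held 2 E-boxes, CACCTG with its first base 187 bases before the start and CAGGTG at 19 bases, which are the same site read on either strand. It held ACCGGT, which reads alike on both strands, at 174 and 131 bases before the start. The Cdh6 window held 0 of either. Among the 32851 promoter windows of this length in the table, 17.2% held at least 1 such E-box and 2.06% at least 2, while 1.86% held at least 1 ACCGGT and 0.0274% at least 2. The search for ACCGGT was chosen after the Epcam sequence had been read. These are matches of letters, and no binding was measured.

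Values are log2 intensities, and a probe set was counted as measured where it was above 5 on at least 2 of the 4 arrays, which held for 13288 probe sets. By this filter 7 of the 14 probe sets were measured, and they cover 5 of the 7 genes. Cdh3 and Cdh4 had none. Over the measured probe sets an array was closer to the other tissue of its experiment than to its own tissue in the other (Pearson's r across probe sets 0.93 and 0.91 between the tissues of an experiment, 0.87 and 0.81 between arrays of the same tissue). Endoderm markers followed the labels, as Foxa1 was at 10.92 and 10.82 on the endoderm arrays, against 4.13 and 4.89 on the mesoderm and ectoderm arrays, in experiments 1 and 2. Heart markers did not, because 13 of 17 heart genes lay above 5 in endoderm 1 but 1 in mesoderm and ectoderm 1, against 6 in endoderm 2 and 15 in mesoderm and ectoderm 2. The defining heart gene Tnnt2 was at 10.84 in endoderm 1 and at 2.51 in mesoderm and ectoderm 1.

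Cdh1, which encodes E-cadherin, was higher in foregut endoderm in both experiments. Its only probe set (1448261_at) read 10.28 in endoderm 1 and 11.73 in endoderm 2, against 7.52 and 7.67 in mesoderm and ectoderm 1 and 2. The groups did not overlap, though with 2 arrays against 2 an exact permutation test could not give a p below 0.333. The spread was 1.03 in endoderm and 0.10 in mesoderm and ectoderm (SD, n = 2). The mean difference was 3.41 ± 0.62 (SE of the fit), or 10.6-fold. Within the experiments the difference was 6.75-fold in experiment 1 and 16.7-fold in experiment 2. In pooled tissue such a difference may come from more cells of a kind or more RNA per cell, which these arrays cannot tell apart. With limma the adjusted p was 0.832 over all measured probe sets, and the unadjusted p was 0.00652.

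Epcam was also higher in endoderm in both experiments. Its brighter probe set (1416579_a_at) read 9.26 in endoderm 1 and 6.38 in mesoderm and ectoderm 1. In experiment 2 it read 11.74 in endoderm and 9.04 in mesoderm and ectoderm. The tissue difference was thus close to the same in either experiment, 2.87 and 2.70 log2 units, on levels that lay far apart. The endoderm value of experiment 1 was hardly above the mesoderm and ectoderm value of experiment 2. The mean difference was 2.79 ± 1.37 (SE), or 6.90-fold, and its SE was 0.23 once a block for the replicate number took out what the tissues of an experiment share. Limma's adjusted p was 0.351 in that blocked fit and 1 without the block. The value ranged from 1.46 without mesoderm and ectoderm 1 to 4.11 without mesoderm and ectoderm 2. These fits set the lone array against both endoderm arrays with no pairing, so the step between the experiments enters them.

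The other Epcam probe set (1447899_x_at) pointed the same way with less contrast. It read 8.25 and 9.48 in endoderm 1 and 2 and 7.75 and 8.02 in mesoderm and ectoderm 1 and 2. Its differences were 0.50 and 1.46, below those of the brighter probe set by 2.37 and 1.24 log2 units. The suffix _x_at marks probes that may also match other sequences. The size of the Epcam difference therefore depends on which probe set is read. The mean was 0.98, and 0.37 without endoderm 2, again with no pairing.

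**Figure D1:**
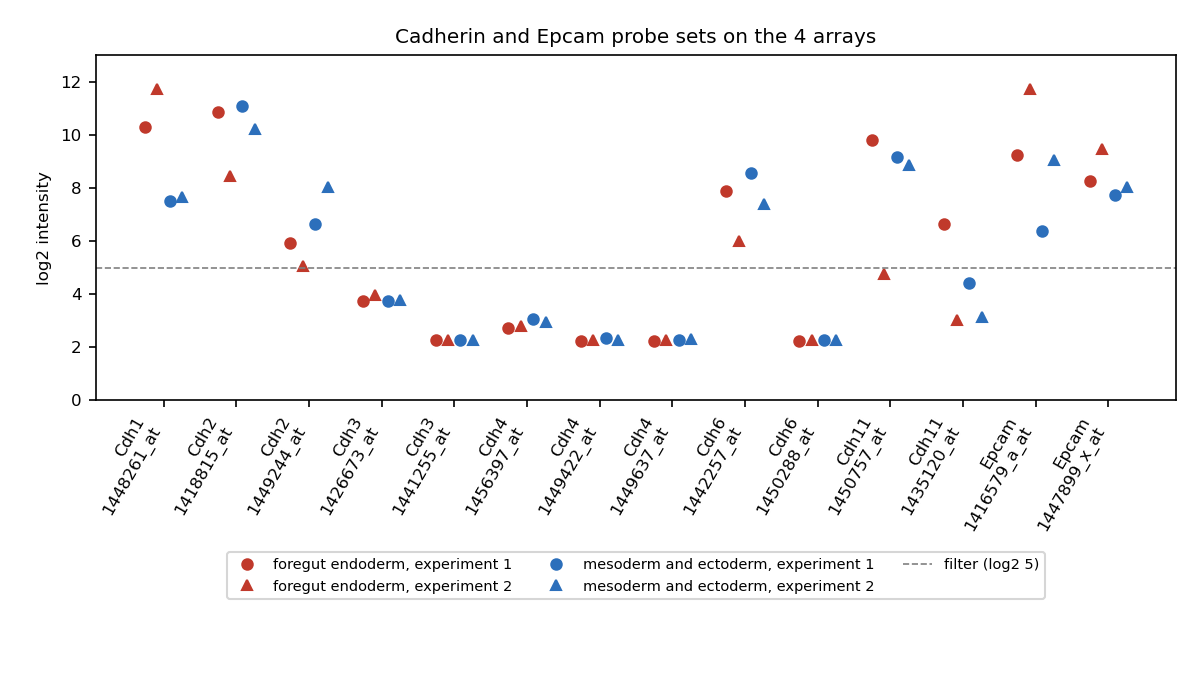
Log2 intensity (vertical axis) of the 14 probe sets of the 7 genes on each of the 4 arrays, endoderm in red and mesoderm and ectoderm in blue, experiment 1 as circles and experiment 2 as triangles, with the filter at 5 as a dashed line. Cdh1 stands between 10.28 and 11.73 in endoderm and at 7.52 and 7.67 in the other tissue, and all Cdh3 and Cdh4 probe sets lie below the filter.

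Endoderm markers differed between the same arrays. Of 12 foregut endoderm markers, 10 lay above 5 on either endoderm array and 4 on either mesoderm and ectoderm array. Their summed linear intensity was 6889 and 11792 in endoderm 1 and 2, and 371 and 881 in mesoderm and ectoderm 1 and 2. Nkx2-1 was at the array floor on all 4 arrays and Pax9 on both mesoderm and ectoderm arrays, where the floor means within 0.1 log2 units of the array's lowest value. Of 9 visceral endoderm markers, 4 lay above 5 on either endoderm array, with sums of 1383 and 5674, and 0 and 1 lay above it in mesoderm and ectoderm 1 and 2, with sums of 97.0 and 242. Apoa4 and Amn were at the floor on all 4 arrays. The part of these cells in the values of Cdh1 and Epcam was not tested.

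Cdh2, which encodes N-cadherin, lay lower in endoderm in both experiments, with most of the difference in experiment 2. Its brighter probe set (1418815_at) read 10.84 and 8.45 in endoderm 1 and 2, against 11.09 and 10.20 in mesoderm and ectoderm 1 and 2. The groups overlapped, as endoderm 1 stood above mesoderm and ectoderm 2. Differences within the experiments were -0.25 and -1.75, with a mean of -1.0 ± 0.99 (SE; limma's adjusted p was 1). Without endoderm 2 the fit, which then sets endoderm 1 against both mesoderm and ectoderm arrays with no pairing, gave 0.20.

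The dimmer Cdh2 probe set (1449244_at) gave a larger contrast. It read 5.91 and 5.04 in endoderm and 6.62 and 8.04 in mesoderm and ectoderm, in experiments 1 and 2. Here the groups did not overlap, which in 2 arrays against 2 is again no more than a p of 0.333 in an exact permutation test. Differences were -0.71 and -3.00, the mean was -1.86 ± 0.68 (SE), and each array left out in turn gave -2.56 to -1.15. Between the experiments the 2 Cdh2 probe sets went opposite ways in mesoderm and ectoderm, by -0.89 for the brighter and 1.42 for the dimmer.

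Set side by side, E-cadherin and N-cadherin transcripts differed in opposite directions between the tissues in both experiments, though for Cdh2 mostly in experiment 2. In experiment 1 the brighter Cdh2 probe set differed by only -0.25 and the dimmer by -0.71, beside 2.76 for Cdh1. The tissue difference of Cdh1 exceeded that of the brighter Cdh2 probe set by 3.00 log2 units in experiment 1 and by 5.81 in experiment 2. Against the dimmer Cdh2 probe set it did so by 3.47 and 7.06. No test of these gaps was made, and an exact permutation test over 2 arrays against 2 could not give a p below 0.333.

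Cdh6, a type II cadherin of kidney precursors, neural plate and neural crest, lay lower in endoderm in both experiments. Its measured probe set (1442257_at) read 7.88 and 6.01 in endoderm 1 and 2, and 8.57 and 7.40 in mesoderm and ectoderm 1 and 2. Endoderm 1 stood above mesoderm and ectoderm 2, so the groups overlapped. The differences were -0.69 and -1.39, with a mean of -1.04 ± 0.87 (SE; limma's adjusted p was 1). In fits with no pairing it was -0.10 without endoderm 2 and -1.98 without endoderm 1. Another Cdh6 probe set (1450288_at) gave floor values throughout.

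Cdh11, a type II cadherin of loose mesenchyme and later of bone, stood apart on 1 array. Its brighter probe set (1450757_at) read 9.81 in endoderm 1 but 4.76 in endoderm 2, against 9.18 and 8.86 in the other tissue of experiments 1 and 2. The tissue difference was therefore 0.63 in experiment 1 and -4.10, or 17.1-fold lower in endoderm, in experiment 2. Its mean of -1.74 ± 1.89 (SE) became 0.79 without endoderm 2 and -4.26 without endoderm 1, with no pairing. The other probe set (1435120_at) was below the filter, with 6.65 in endoderm 1, 4.43 in mesoderm and ectoderm 1, and 3.04 and 3.14 in endoderm and mesoderm and ectoderm of experiment 2. Both probe sets were highest in endoderm 1 and lowest in endoderm 2, but only the brighter one was high in mesoderm and ectoderm 2.

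Markers of mesenchyme, heart and vessels differed between the endoderm arrays. So did all 7 measured cadherin and Epcam probe sets, from -5.06 for Cdh11 to 2.48 for the brighter Epcam probe set (endoderm 2 minus endoderm 1). Of 13 head mesenchyme markers, 10 lay above 5 in endoderm 1 and 6 in endoderm 2, with summed linear intensities of 2963 and 911. In mesoderm and ectoderm 1 and 2, 7 lay above 5 on either array, with sums of 667 and 1181. Twist2 was at the floor in 3 arrays and Msc in the same 3, all but endoderm 1. The heart sum was 15831 in endoderm 1 and 2278 in endoderm 2, and 362 and 112189 in mesoderm and ectoderm 1 and 2, with 0 of the 17 heart markers at the floor. Of 10 endothelial markers, 6 lay above 5 in endoderm 1 and in mesoderm and ectoderm 2, 2 in mesoderm and ectoderm 1 and 1 in endoderm 2, and the summed intensities were 758, 231, 190 and 593 in endoderm 1, mesoderm and ectoderm 1, endoderm 2 and mesoderm and ectoderm 2. Pecam1 was at the floor on all 4 arrays. Their part in the cadherin values was not tested.

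Most measured neural plate genes lay with the other side of the comparison. Of 12 neural plate markers, 5 lay above 5 on either endoderm array and 11 on either mesoderm and ectoderm array. Their sums were 2040 and 4650 in endoderm 1 and 2 and 7094 and 6062 in mesoderm and ectoderm 1 and 2, with Emx2 at the floor on both endoderm arrays. Of 11 measured, 10 were lower in endoderm in both experiments. The bright genes Sox2 and Otx2 were near level in experiment 2, at 11.71 and 9.88 in endoderm and 11.73 and 9.80 in mesoderm and ectoderm. Six3, a forebrain factor, read 5.50 and 5.61 in endoderm and 8.60 and 8.01 in mesoderm and ectoderm, in experiments 1 and 2. Of 8 neural crest markers, 5 and 6 lay above 5 in endoderm 1 and 2 and 7 on either mesoderm and ectoderm array, with sums of 2340, 942, 2068 and 2011 in endoderm 1 and 2 and mesoderm and ectoderm 1 and 2. None of these 8 was at the floor. Their part in the values of Cdh2 and Cdh6 was not tested. The ectoderm at hand also holds surface epithelium, where Cdh1 and Epcam are known to be active. Of 9 markers of surface ectoderm and placodes, 5 and 4 lay above 5 in endoderm 1 and 2 and 6 on either mesoderm and ectoderm array, with sums of 2855, 10398, 3515 and 3210 in that order and Trp63 at the floor in mesoderm and ectoderm 2. That list shares the keratins Krt8 and Krt18 with simple gut epithelium, and in endoderm 2 they read 12.43 and 12.10. Of its 6 measured genes, Krt8, Krt18 and Eya1 were higher in endoderm in both experiments, whereas Tfap2a, Tfap2c and Dlx5 were lower.

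Cdh3 and Cdh4 stayed below the filter on every probe set. Cdh3, which encodes P-cadherin and is the direct protein-coding neighbour of Cdh1 in RefSeq, had 1 probe set (1426673_at) at 3.73, 3.75, 3.95 and 3.76 in endoderm 1, mesoderm and ectoderm 1, endoderm 2 and mesoderm and ectoderm 2. Its other probe set (1441255_at) gave floor values throughout. Cdh4, the R-cadherin of retina and brain, had 2 probe sets at the floor on all 4 arrays and 1 more (1456397_at) between 2.73 and 3.07. Such values set no order among the tissues, and a silent gene and a probe set that fails cannot be told apart in them. The measured probe set nearest to the filter was the Cdh2 probe set 1449244_at, whose second-highest array stood at 6.62, and the nearest below it was the Cdh11 probe set 1435120_at, at 4.43.

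Across the whole table the tissue test called 0 of 13288 probe sets at an adjusted p under 0.05 (limma), or 0%, and 0 of the 7 measured cadherin and Epcam probe sets. At an unadjusted p under 0.05 limma gave 500 probe sets in all and 1 of the 7, Cdh1. The blocked fit also called 0, and 1326 probe sets had an unadjusted p under 0.05 in it, among them 3 of the 7: Cdh1, Cdh6 and the brighter Epcam probe set. A count of 0 in so few arrays is no measure of likeness. Counted without a test, 2 of the 7 probe sets (Cdh1 and the brighter one of Epcam) stood 2-fold or more higher in endoderm in each experiment, where 3.57% of all measured probe sets were. Of the 7, 0 were at least 2-fold lower in both, where 1% were. The genome-wide split of 474 higher against 133 lower moved to 367 and 194 with quantile normalization and to 347 and 211 with median centring, as the median difference of all probe sets went from 0.10 to -0.02 and -0.08. The signs of the 7 probe sets in both experiments and these counts of 2 and 0 held under both scalings.

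**Figure D2:**
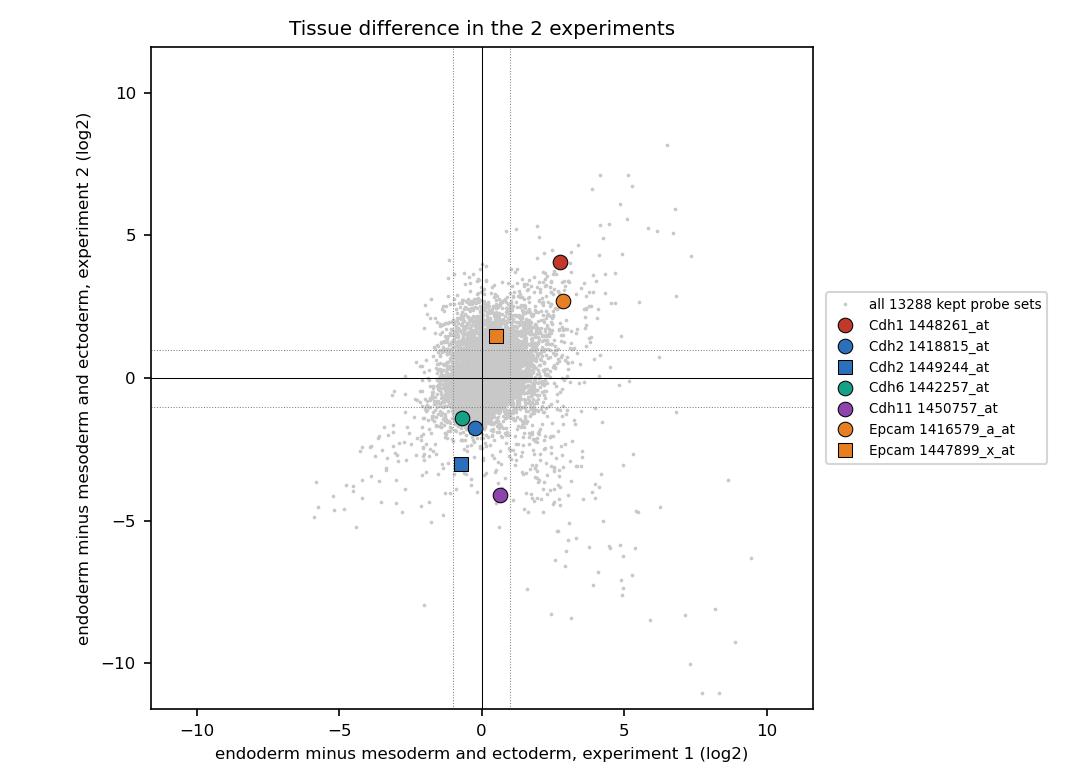
Log2 tissue difference, endoderm minus mesoderm and ectoderm, in experiment 1 (horizontal axis) and experiment 2 (vertical axis) for the 7 measured cadherin and Epcam probe sets (coloured) over all 13288 measured probe sets (grey), with dotted lines at 2-fold. Cdh1 (2.76 and 4.06) and the brighter Epcam probe set (2.87 and 2.70) lie past 2-fold in both experiments, and Cdh11 (0.63 and -4.10) lies on opposite sides.

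The experiments themselves were also compared, as the second minus the first with tissue as a term. Of the 7 probe sets the brighter one of Epcam had the closest values in the 2 tissues, being higher in experiment 2 by 2.48 log2 units in endoderm and by 2.65 in mesoderm and ectoderm. The mean of 2.57 ± 0.23 (SE) nearly equalled its tissue difference of 2.79. Limma's adjusted p was 0.0966. It was 0.0471 with quantile normalization, 0.0494 with median centring and 0.0439 with the stricter filter at 7, and over all 6 alternatives it ranged from 0.0439 to 0.185. The other Epcam probe set shifted by 1.23 and 0.27, with an adjusted p of 0.272.

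Cdh2, Cdh6 and Cdh11 were lower in the endoderm of experiment 2. Cdh6 was lower in experiment 2 by -1.87 in endoderm and by -1.17 in mesoderm and ectoderm, with a mean of -1.52 ± 0.30 (SE) and an adjusted p of 0.112 (limma). The brighter Cdh2 probe set shifted by -2.39 and -0.89 (adjusted p = 0.161), and the brighter Cdh11 probe set by -5.06 and -0.33 (adjusted p = 0.302). Cdh1 differed by 1.45 in endoderm and by only 0.15 in mesoderm and ectoderm (adjusted p = 0.323). Between the 2 endoderm arrays Cdh1 and Epcam were thus higher in experiment 2 and Cdh2, Cdh6 and Cdh11 lower. Limma called 0 of 13288 probe sets, or 0%, and 0 of the 7, while 3996 in all and 3 of the 7 had an unadjusted p under 0.05. Counted without a test, 1 of the 7 was at least 2-fold higher in experiment 2 in both tissues (11.4% of all measured probe sets) and 1 at least 2-fold lower (7.19%).

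**Figure D3:**
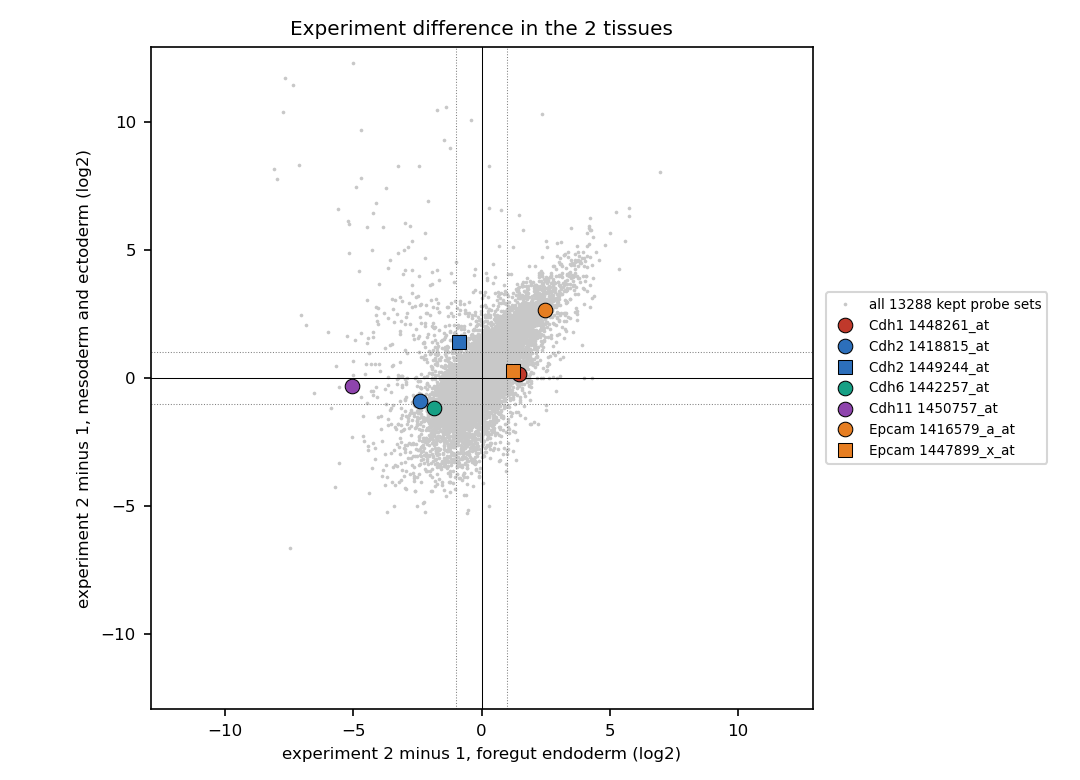
Log2 difference of experiment 2 minus experiment 1 in foregut endoderm (horizontal axis) and in mesoderm and ectoderm (vertical axis), for the 7 measured cadherin and Epcam probe sets (coloured) over all 13288 measured probe sets (grey), with dotted lines at 2-fold. The brighter Epcam probe set is shifted alike in both tissues (2.48 and 2.65), whereas Cdh11 (-5.06 and -0.33) is shifted in endoderm.

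Genes with profiles most like these were sought among the 7802 measured genes, as the root mean square distance between log2 profiles over the 4 arrays after each was centred on its own mean. Nearest to Cdh1 were the endoderm factor Foxa2 at a distance of 0.15, the integrin subunit gene Itga3 at 0.18 and Kdf1, a regulator of keratinocyte differentiation, at 0.24. All 3 were higher in endoderm in both experiments, as was the Cdh1 profile they were picked by. In mesoderm and ectoderm 1 and 2 Foxa2 read 4.40 and 4.58 and Itga3 4.93 and 4.88. These 2 genes thus passed the filter at 5 through the endoderm arrays alone. Nearest to Epcam were Hhex, a homeobox factor of anterior endoderm, at 0.18, the simple keratin Krt8 at 0.28 and the tight junction claudin Cldn6 at 0.33. Hhex read 7.05 and 9.58 in endoderm 1 and 2 and 3.76 and 6.64 in mesoderm and ectoderm 1 and 2. It shows the step between experiments in both tissues that is part of the Epcam profile it was picked by. Nearest to Cdh11 were Foxd1, a forkhead factor, at 0.12, the lymphangiogenic growth factor Vegfc at 0.25 and the microtubule gene Map1b at 0.31. All 3 were lowest in endoderm 2, as was the Cdh11 profile they were picked by. Foxd1 read 9.01, 8.30, 4.18 and 8.04 in endoderm 1, mesoderm and ectoderm 1, endoderm 2 and mesoderm and ectoderm 2. For Cdh2 they were the selenium enzyme gene Sephs2 at 0.13, Nfatc2ip at 0.19 and Skida1 at 0.19. Within a distance of 0.5 there were 114 genes around Cdh2, 20 around Cdh1 and 8 around either of Cdh11 and Epcam.

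Other cadherins of the superfamily were next set beside these members. Of 16 listed classical and related cadherins, 14 had a probe set and 0 passed the filter. Cdh5, the cadherin of vessel walls, read 4.53 and 2.30 in endoderm 1 and 2 and 2.32 and 4.28 in mesoderm and ectoderm 1 and 2. Only Cdh10 passed 5 on any array, at 5.76 in endoderm 2 (chosen after its values were seen).

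Catenins and the proteins that link them to actin were read next. Of 23 listed genes, 21 were measured, and 12 were higher in endoderm in both experiments and 1 lower, where 37% of all 7802 genes were higher in both and 24.3% lower in both. Medians were 0.67 and 0.22, beside 0.15 and 0.01 over all genes. With quantile normalization 10 were higher and 2 lower, and with median centring 10 and 3. The median of the mean differences was 0.47, and 0.28 without mesoderm and ectoderm 1 and 0.30 with median centring. Of the catenins that bind cadherins or actin directly, Ctnnb1 (beta-catenin) differed by 0.00 and 0.07 in experiments 1 and 2, and Ctnna1 (alpha-catenin) by 0.62 and 0.27. Ctnnd1 (p120-catenin) differed by 0.89 and 0.14 and Jup (plakoglobin) by 2.11 and -0.23, so they did not share 1 pattern (these 4 were chosen after their values were seen). By the smallest p the leading genes were Shroom3, which drives apical constriction, at 1.12 ± 0.35 (SE), the junction protein gene Plekha7 at 1.17 ± 0.38, the nectin-binding scaffold gene Afdn at 0.84 ± 0.42 and Ctnnd2, the catenin of neural tissue, at -1.21 ± 0.65. None of the 21 passed the test (limma, adjusted over all genes).

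Nectins, the other adhesion molecules of adherens junctions, were mixed. Of 10 genes 6 were measured, 4 of them higher in both experiments (3 with either scaling) and 2 lower, with medians of 0.21 and 0.26. Over all 7802 genes 37% were higher in both and 24.3% lower, with medians of 0.15 and 0.01. The median of experiment 1 turned to -0.03 with median centring. That of the mean differences was 0.23, and 0.11 without mesoderm and ectoderm 1, with 0.056 to 0.57 over the filters and scalings. F11r, a junctional adhesion molecule, differed by 1.35 and 1.61, Nectin2 by 0.98 and 1.06, Pvr by 0.33 and 0.37 and Nectin3 by -0.26 and -1.45. All 4 measured Nectin3 probe sets were lower in endoderm in both experiments.

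The measured genes of the desmosomal list, which includes cadherins of its own, were higher in endoderm in both experiments. Plakoglobin (Jup), also a desmosomal plaque gene, was listed with the catenins instead and had opposite signs (2.11 and -0.23). All 5 measured of 11 were higher in both experiments and with either scaling, where 37% of all genes were higher in both. Their medians were 1.86 and 0.66. The median of their mean differences was 1.77, and 0.52 without mesoderm and ectoderm 1 and 0.96 with no filter. Dsg2, a desmosomal cadherin, read 10.01 and 10.63 in endoderm and 6.95 and 7.25 in mesoderm and ectoderm. Its difference of 3.21 ± 0.38 (SE) was 3.06 in experiment 1 and 3.37 in experiment 2. The desmosomal cadherin Dsc2 differed by 1.63 and 2.31, the plaque gene Pkp2 by 2.91 and 0.63 and the desmoplakin gene Dsp by 1.86 and 0.66. The last 2 are also genes of heart muscle junctions. None passed the test (limma's adjusted p was 0.475 for Dsg2).

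Relatives and membrane partners of Epcam were divided. Of 10 genes 7 were measured, 4 of them higher in both experiments, 0 lower in both and 3 with opposite signs, with medians of 1.11 and 2.28. The share higher in both was 57.1%, beside 37% of all genes, where 24.3% were lower in both. St14, a membrane serine protease, differed by 2.46 and 4.48, and its inhibitors Spint1 and Spint2 by 0.90 and 2.85 and by 1.44 and 2.28. St14 read only 3.87 and 4.46 in mesoderm and ectoderm 1 and 2. It thus passed the filter through its endoderm values alone, 6.33 and 8.93, which bears on its place among the genes higher in both. The claudin gene Cldn7, whose protein binds Epcam, differed by 2.06 and 3.02. The median of the mean differences of this list was 1.86, and 0.90 without endoderm 2, 2.82 without endoderm 1 and 0.44 with the filter at 7. Among genes of shedding and turnover, 7 of 11 measured (of 15) were higher in both experiments and 1 was lower (2 with either scaling), with medians of 0.70 and 0.46. Here 63.6% were higher in both, again beside 37% of all genes. The median of the mean differences was 0.69, and 0.42 without mesoderm and ectoderm 1. Adam10, the main sheddase of E-cadherin and N-cadherin, differed by 0.99 ± 0.35 (SE), the membrane metalloprotease gene Mmp14 by 1.14 ± 0.61, Furin, a convertase that matures cadherin precursors, by 0.69 ± 0.36 and the endocytic adaptor gene Numb by 0.72 ± 0.43. None of either list passed the test (limma, adjusted over all genes).

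Regulators of Cdh1 transcription went both ways. Of 20 listed genes 9 were measured, 4 higher in both experiments, 1 lower and 4 with opposite signs, so that the medians were 1.64 and -0.57. The share higher in both, 44.4%, was near the 37% of all genes, of which 24.3% were lower in both. The median of the mean differences, 0.999, was 0.092 without mesoderm and ectoderm 1, 0.31 without endoderm 1 and 0.19 with no filter. Esrp1 stands on this list but is a splicing factor, not a regulator of transcription. It differed by 1.64 and 3.14, and its 1.64 is the list's median in experiment 1. The grainyhead-like activator Grhl2 differed by 1.45 and 2.51 and the E-protein Tcf4 by 0.89 and 1.11. A dimmer Grhl2 probe set was level, at -0.05 and 0.07. The repressor Zeb2 differed by -0.95 and -3.36 on its brighter probe set and by 0.03 and -2.79 on the other. None passed the test (limma's adjusted p was 0.77 for Esrp1).

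Other listed repressors differed among themselves (chosen after their values were seen). Zeb1 read 8.64 in endoderm 1, 8.18 and 7.83 in mesoderm and ectoderm 1 and 2 and 4.53 in endoderm 2. Twist1 read 7.81, 5.64, 7.28 and 2.57 in the same order. Snai2 read 9.94, 7.85, 8.68 and 7.59 in that order. These 3 were lowest in endoderm 2, whereas the E-protein Tcf3 was highest there, at 8.27, against 7.97 in endoderm 1 and 6.17 and 8.05 in mesoderm and ectoderm 1 and 2. Snai1 was below the filter, between 3.66 and 3.68 on the 4 arrays.

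**Figure D4:**
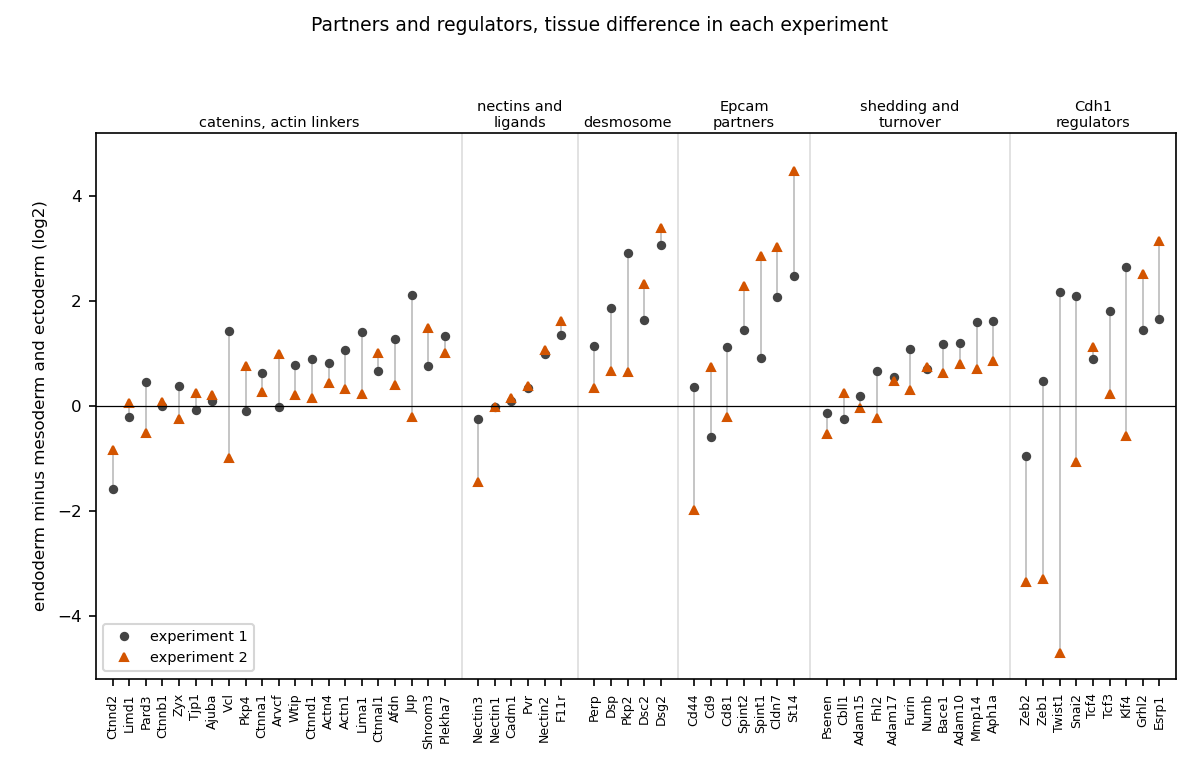
Log2 tissue difference, endoderm minus mesoderm and ectoderm (vertical axis), of each measured gene of the 6 partner lists that had measured genes, in experiment 1 (circles) and experiment 2 (triangles), sorted by mean within a list. All 5 measured genes of the desmosomal list lie above 0 in both experiments, while Zeb1 and Twist1 lie above 0 in experiment 1 and at -3.30 and -4.71 in experiment 2.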

How the data were processed

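RNA of 4 samples, 2 for each tissue, was amplified in 2 rounds and hybridized to Affymetrix MOE430 arrays, per the labels' protocols and design text. The deposited intensity values are linear, 1 for each probe set; the design text names GC-RMA (GenePattern) as the authors' method, and the submitters' processing notes name RMA, without versions. Log2 was taken, 64 control probe sets were left out, and probe sets above 5 on at least 2 arrays were kept. Between 41.4% and 44.8% of probe sets of an array lay at its floor, and 12470 to 13033 above 5. With 2 arrays for each tissue, array number limits the precision, and p-values measure the spread between these pools. Without the replicate block that spread includes the difference between the experiments and their ways of dissection.

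The tissue test used limma 3.58.1 under R 4.3.3 (lmFit, eBayes, two-sided, Benjamini-Hochberg adjustment over all kept probe sets or, for lists, over 7802 genes read from their brightest kept probe set). The same replicate number marks the same way of dissection per the labels, which pairs the samples, and deviations from the tissue means correlated at 0.56 between paired arrays. The script was tested on simulated data. Alternatives were another filter, scaling, floor or variance model, the replicate block, 1 probe set for each gene, and each array left out. Tissue fits with an array left out had no pairing, so differences between the experiments enter their values.

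Members and lists were chosen with earlier results of these data known. Named were all probe sets of the 7 genes, up to 4 genes with the smallest p from each partner list, 9 marker genes at most, and the 3 nearest profiles of Cdh1, Cdh2, Cdh11 and Epcam. Outside this rule, markers at the floor, Sox2, Otx2, the shared keratins and the other measured surface ectoderm genes were named after their values were seen. Of 45037 probe sets, 34945 had 1 symbol, 932 several and 9160 none. Promoters and gene neighbours are from RefSeq (GRCm38.p6), and promoters matched 2 of 7 genes.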

Additional observations from a re-analysis of the deposited data

Results flagged for a closer look

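Cdh11 was the gene whose tissue difference had opposite signs in the 2 experiments. On probe set 1450757_at endoderm minus mesoderm and ectoderm was 0.63 in experiment 1 and -4.1 in experiment 2. On probe set 1435120_at, which lay below the filter, it was 2.22 and -0.1, and both arrays of experiment 2 were dim there (3.04 and 3.14). The difference between the experiments was not tested, because each holds 1 array of either tissue.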

How the results depend on the processing

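The tissue test of limma called 0 probe sets under every alternative run, and the 7 cadherin and Epcam probe sets kept the direction of their tissue difference, save 2 without endoderm 2: the brighter Cdh2 probe set ranged from -2.20 to 0.20 and Cdh11 from -4.26 to 0.79 over the arrays left out in turn. With the replicate block as well, 0 were called, and the block changed no other call. The stricter filter at 7 left out the dimmer Cdh2 probe set, which thus has no value there.

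Between the experiments limma called 673 probe sets with the filter at 7, 733 with quantile normalization and 423 with median centring, against 0. The brighter Epcam probe set was among them each time, at 2.57, 2.49 and 2.52 log2 units. Probe sets at least 2-fold apart in both experiments numbered 607, against 353 with the filter at 7, 373 with 1 probe set for each gene, and 820 to 1622 with an array left out, where the lone array served both comparisons. The experiment fit with an array left out had no residual degrees of freedom and was not run. The cause of these moves was not tested. Dim probe sets limit what can be said of Cdh3 and Cdh4.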

Other observations

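Several epithelial genes of the lists failed the filter because they stood above 5 on the endoderm array of experiment 2 alone (chosen after their values were seen). Prss8, a membrane serine protease, read 7.85 there and 4.57 in endoderm 1, against 3.38 and 4.66 in mesoderm and ectoderm 1 and 2. The desmosomal plaque gene Pkp3 read 6.41 there, 4.70 in endoderm 1 and 4.09 and 4.64 in the other tissue. Klf5, a factor of gut epithelium, read 5.92 there and between 4.53 and 4.96 elsewhere. The splicing factor Esrp2 read 5.42 there and 4.93 in endoderm 1, against 2.89 on both mesoderm and ectoderm arrays.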
